A study of Mus musculus with 8 samples.

Results

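The genes described here belong to the STAT and JAK families of the drug target Stat3: Stat2, Stat4, Stat5a, Stat5b and Stat6 among the STATs, and Jak2, Jak3 and Tyk2 among the JAKs. They are defined by gene symbol and made up 8 of the 54532 genes in the count table. Stat3 and Jak1 are given beside them for comparison. The study profiled whole lungs of CC-LR mice, a model of K-ras mutant lung adenocarcinoma in which Cre recombinase expressed from the club cell secretory protein (CCSP) locus switches on a K-ras G12D allele in airway epithelium. All 8 mice carried both alleles and were 14 weeks old. The Control group held 4 mice, and the TTI-101 group held 4 mice that had received TTI-101, a small molecule inhibitor of STAT3, for 4 weeks. Because every mouse carried the K-ras allele, there was no tumor-free lung to compare with, and the sources used here do not say by which route the sequenced mice were dosed or whether their controls received the vehicle.

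JAK kinases sit on the inner tails of cytokine receptors in pairs, and when a ligand joins the receptor chains they phosphorylate each other, the receptor and then STAT proteins. Phosphorylated STATs pair up, enter the nucleus and bind DNA, and among the genes they switch on are inhibitors such as the SOCS proteins that close the loop. Each receptor family uses its own set of JAKs and STATs, and STAT proteins are regulated mainly by phosphorylation, which RNA levels do not measure. The question put to the counts was whether RNA of the other family members stood at another level in lungs of mice given a STAT3 inhibitor.

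On mm10, the build named for the files, the STAT genes lie as follows: Stat2 (ENSMUSG00000040033) at chr10:128270559-128292849 on the plus strand, Stat4 (ENSMUSG00000062939) at chr1:51987148-52107189 on the plus strand, Stat5a (ENSMUSG00000004043) at chr11:100859351-100885169 on the plus strand, Stat5b (ENSMUSG00000020919) at chr11:100780731-100850724 on the minus strand and Stat6 (ENSMUSG00000002147) at chr10:127642986-127660957 on the plus strand. The kinase genes are Jak2 (ENSMUSG00000024789) at chr19:29251828-29313080 on the plus strand, Jak3 (ENSMUSG00000031805) at chr8:71676296-71690575 on the plus strand and Tyk2 (ENSMUSG00000032175) at chr9:21104068-21131243 on the minus strand. All 8 are protein-coding.

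Stat5a and Stat5b lie head to head on chromosome 11 with 8626 bases between them, and their coding sequences are close copies. The longest run that both transcripts share base for base was 324 bases and fell within the coding sequence of each. To show how nearly the pair can be confused by short reads, 120 bases of each transcript from GENCODE M21 (mouse build GRCm38) are printed 5′ to 3′, covering the last 60 bases of that run and the next 60. Capitals mark the 1 base at which the transcripts differ.
Stat5a: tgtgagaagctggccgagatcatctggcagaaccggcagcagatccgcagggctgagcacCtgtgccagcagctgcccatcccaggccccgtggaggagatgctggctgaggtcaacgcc
Stat5b: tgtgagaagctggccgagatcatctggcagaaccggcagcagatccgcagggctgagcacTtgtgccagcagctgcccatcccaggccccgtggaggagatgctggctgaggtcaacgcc
Across all annotated transcripts, 608 windows of 50 bases were identical between the pair, 8.21% of the Stat5a windows and 10.98% of the Stat5b windows. How the counting treated reads that match both genes is not given in the sources used here, so the Stat5a and Stat5b values carry that uncertainty.

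Other members also share sequence with neighbors. On chromosome 1, an annotated transcript on the same strand, Gm28177, overlaps Stat4 and shares 21.7% of the 50-base windows of Stat4. Gm28177 had at most 1 count in any library. Jak3 overlaps Insl3, an insulin-like hormone gene on the same strand, over 1362 bases, and 6.53% of Jak3 windows also occur in Insl3, which averaged 129 counts per library. The 3′ end of Stat5a overlaps the 3′ end of Stat3 on the opposite strand by 72 bases. Stat6 overlaps Nab2 on the opposite strand by 40 bases. The library kit keeps strand, but the strand setting of the counting is not given in the sources used here. Stat6 and Jak2 shared 0 windows with any other gene.

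RefSeq promoter windows on GRCm38.p6, running from 250 bases before to 50 bases after each start, were found for all 8 members. The STAT dimer motif GAS, TTCNNNGAA, read on both strands, occurred in 0 of these windows, against 8.30% of 32851 promoter windows in all. The 4-base-spacer form TTCNNNNGAA, which Stat6 prefers, occurred in the Stat2 window and in 6.95% of all windows. The core AANNGAAA, bound by the IRF9 subunit of the Stat2 complex, occurred in a window of Stat2, Stat4, Stat5b and Stat6 and in 23.9% of all windows. Stat4, Stat5a and Stat5b also had a window at a second start, so this list by gene and the share by window are unlike measures. The Stat4 match lay only in the window at chr1:52007990-52008289, and the Stat5b match only in that at chr11:100822521-100822820. The Stat2 window, at chr10:128270248-128270547 on the plus strand, is printed because it held both the 4-base-spacer motif and the IRF core. Its capitals mark 22 bases, from 222 to 201 before the start, where 2 IRF cores and the 4-base-spacer motif overlap.
Stat2 promoter: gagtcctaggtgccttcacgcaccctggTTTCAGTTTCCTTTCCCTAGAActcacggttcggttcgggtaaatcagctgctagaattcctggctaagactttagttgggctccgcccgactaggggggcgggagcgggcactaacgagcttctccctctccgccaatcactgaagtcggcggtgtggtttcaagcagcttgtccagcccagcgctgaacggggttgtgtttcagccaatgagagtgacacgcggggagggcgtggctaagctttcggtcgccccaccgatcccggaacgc
These are matches of letters and not measured binding sites.

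The 8 libraries held 16075855 to 26873509 counts, and 17138 genes were expressed highly enough to be tested. Control mouse 4 stood apart from the other 7. Mitochondrial transcripts made up 5.56% of its counts against 2.01% to 2.85% in the others, and 21868 genes were detected in it against 23673 to 25104. It also had the highest summed level of 8 lung epithelial markers in all 8 mice, 98931 CPM, and the lowest summed levels of endothelial, T cell, B cell and NK cell markers. CPM are counts scaled to library totals that were corrected for differences in library make-up. Defining lung markers such as Sftpc and Scgb1a1 were abundant in every library. Fold changes without Control mouse 4 are therefore given beside those of the members and of the pathway genes named.

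Every member was detected in every mouse, and the fitted level of all 8 was higher in the TTI-101 group, but none of the differences passed the test. Of all genes tested, 50.6% were higher. The members were measured in the same mice and 24 of their 28 pairs correlated above 0, so their directions are not independent. Log2 fold changes of TTI-101 over Control ran from 0.09 for Jak2 to 0.43 for Stat5a with a median of 0.24, beside a median of 0.00 over all genes tested. At an adjusted p under 0.05 by edgeR's quasi-likelihood test, 0 of 8 members and 0 of 17138 genes (0%) were called. The lowest adjusted p of a member was 0.657. At an unadjusted p under 0.05, 0 of 8 members passed, where 6.61% of all genes did, 3.02% higher and 3.58% lower. For 0 of 8 members did the groups separate without overlap, against 1.53% of all genes with every TTI-101 mouse higher and 1.43% with every TTI-101 mouse lower. Without Control mouse 4, 7 of 8 members were higher, beside 9353 of 17548 genes tested. In that fit the median log2 fold change of the members was 0.20, and 0 members passed either threshold.

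**Figure D1:**
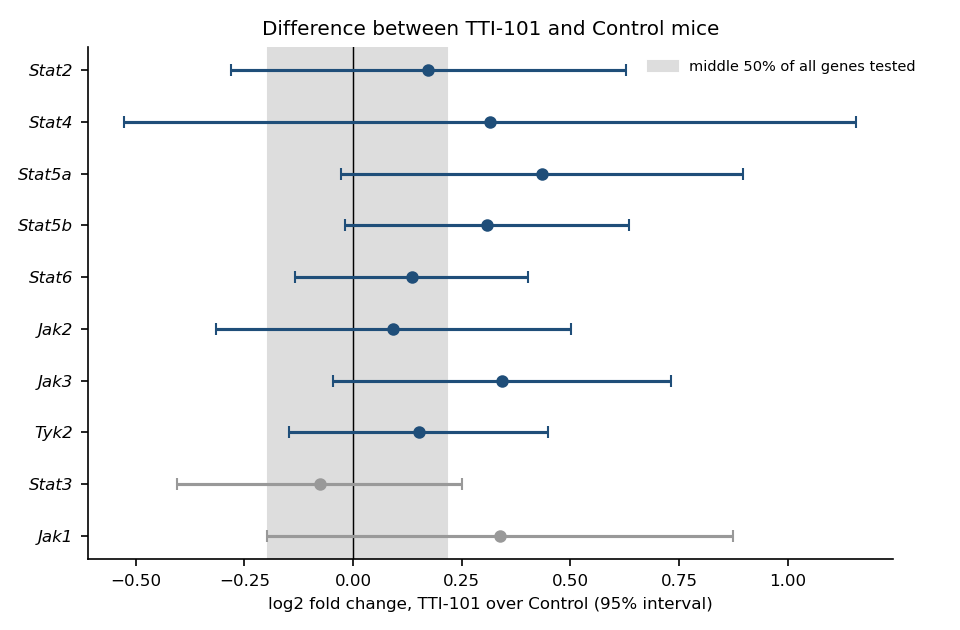
Log2 fold change of TTI-101 over Control on the x axis for the 8 members (blue) and Stat3 and Jak1 (grey), with 95% intervals from edgeR over 4 mice per group. The grey band is the middle 50% of all genes tested. All 8 members lie right of 0, and every interval includes 0.

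Values below are CPM scaled by TMM, a correction for differences in library make-up, unless stated otherwise, with mice given in the order 1 to 4. Mouse numbers are those of the sample titles and were not taken as pairs of animals between the groups.

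The kinases are taken first. Jak3 is the JAK that binds the common gamma chain of the receptors for several lymphocyte cytokines. It stood at 86.2, 82.9, 70.4 and 54.6 CPM in the Control mice and at 73.4, 95.8, 96.7 and 107 CPM in the TTI-101 mice. The 3 TTI-101 mice 2 to 4 were above every control, and TTI-101 mouse 1 was below Control mice 1 and 2. Its log2 fold change was 0.34 with an SE of 0.18 and a 95% interval from -0.05 to 0.73 (adjusted p = 0.657). Leaving out Control mouse 4 gave 0.24. In bulk lung, a different number of cells of a type and a different RNA level per cell cannot be told apart. This holds for Jak3 as for every other gene described here.

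Tyk2 serves the receptors of type I interferon and of the interleukin-12 and interleukin-10 families. It stood at 59.95, 63.6, 63.0 and 49.8 CPM in the Control mice and at 56.8, 67.1, 66.3 and 72.3 CPM in the TTI-101 mice. As for Jak3, the TTI-101 mice 2 to 4 exceeded every control while TTI-101 mouse 1 fell among them. Its log2 fold change was 0.15 with an SE of 0.13 (95% interval -0.15 to 0.45, adjusted p = 0.742), and without Control mouse 4 it was 0.09.

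Jak2 serves the receptors of growth hormone, erythropoietin, thrombopoietin and prolactin, the beta common chain receptors and the interferon gamma receptor. Its Control levels were 78.0, 57.0, 58.4 and 75.8 CPM and its TTI-101 levels were 83.8, 54.8, 62.6 and 85.8 CPM. In each group 2 mice stood high and 2 stood low, so the groups overlapped almost fully. The log2 fold change was 0.09 with an SE of 0.18 (95% interval -0.32 to 0.50, adjusted p = 0.890), and it was 0.17 without Control mouse 4 and -0.0019 without TTI-101 mouse 4.

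Among the STATs, Stat2 joins IRF9 in the complex that answers type I interferon. Its Control levels were 76.5, 76.4, 81.5 and 39.8 CPM and its TTI-101 levels were 80.7, 72.9, 76.3 and 79.4 CPM. Control mouse 4 stood far below the other 7 mice, which lay within 72.9 to 81.5 CPM. The log2 fold change was 0.17 with an SE of 0.21 (95% interval -0.28 to 0.63, adjusted p = 0.802), and it was -0.0033 without Control mouse 4.

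Stat4 carries interleukin-12 signals in T and NK cells. It was the least abundant member, with 38 to 183 counts per library, so its values are the least precise. The Control mice had 5.87, 2.27, 3.33 and 2.81 CPM and the TTI-101 mice had 6.90, 2.70, 3.61 and 4.62 CPM. Mouse 1 was the highest of each group, and these were also the 2 deepest libraries. The part of depth in these values was not tested. The fitted difference on the log2 scale was 0.32 with an SE of 0.38 and the widest interval of the 8, -0.53 to 1.16 (adjusted p = 0.805). It ran from 0.02 without TTI-101 mouse 1 to 0.67 without Control mouse 1. With Control mouse 4 set aside the value was 0.23.

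Stat5a and Stat5b carry signals of the common gamma chain, beta common chain and hormone receptors. Stat5a had the largest fold change of the 8 members. It stood at 26.8, 16.3, 17.3 and 14.6 CPM in the Control mice and at 26.6, 20.96, 26.9 and 27.1 CPM in the TTI-101 mice. Control mouse 1 was level with TTI-101 mice 1, 3 and 4 and above TTI-101 mouse 2. The other 3 controls were below all 4 TTI-101 mice. The log2 fold change was 0.43 with an SE of 0.21 (95% interval -0.03 to 0.90), with an unadjusted p of 0.0627 and an adjusted p of 0.657. An exact permutation test on the log2 values gave p = 0.0857, where the smallest p possible with 4 against 4 mice is 0.0286. The fold change was 0.66 without Control mouse 1, with an unadjusted p of 0.00374 and an adjusted p of 0.294. In that fit 2393 of 17406 genes had an unadjusted p under 0.05. The fold change was 0.34 without Control mouse 4, with an unadjusted p of 0.134.

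The fitted level of Stat5b was likewise higher in the TTI-101 group. Stat5b stood at 79.9, 75.4, 73.6 and 61.9 CPM in the Control mice and at 95.2, 70.3, 95.4 and 98.9 CPM in the TTI-101 mice. The TTI-101 mice 1, 3 and 4 were above every control, while TTI-101 mouse 2 was below 3 of the 4 controls. The log2 fold change was 0.31 with an SE of 0.15 (95% interval -0.02 to 0.63), with an unadjusted p of 0.0625 and an adjusted p of 0.657. Without TTI-101 mouse 2 it was 0.42 with an unadjusted p of 0.0117 and an adjusted p of 0.280. In that fit 2498 of 17533 genes had an unadjusted p under 0.05. Leaving out Control mouse 4 gave a log2 fold change of 0.25 with an unadjusted p of 0.134.

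Stat6 carries interleukin-4 and interleukin-13 signals. It stood at 176, 157, 160 and 158 CPM in the Control mice and at 174, 165, 188 and 186 CPM in the TTI-101 mice. The 3 lowest mice of all 8 were controls, and Control mouse 1 lay between the TTI-101 mice. TTI-101 over Control gave a log2 fold change of 0.13 with an SE of 0.12 and the narrowest interval of the 8, -0.13 to 0.40 (adjusted p = 0.742). On the linear scale this interval ran from 0.912-fold to 1.32-fold. The log2 fold change was again 0.13 without Control mouse 4.

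**Figure D2:**
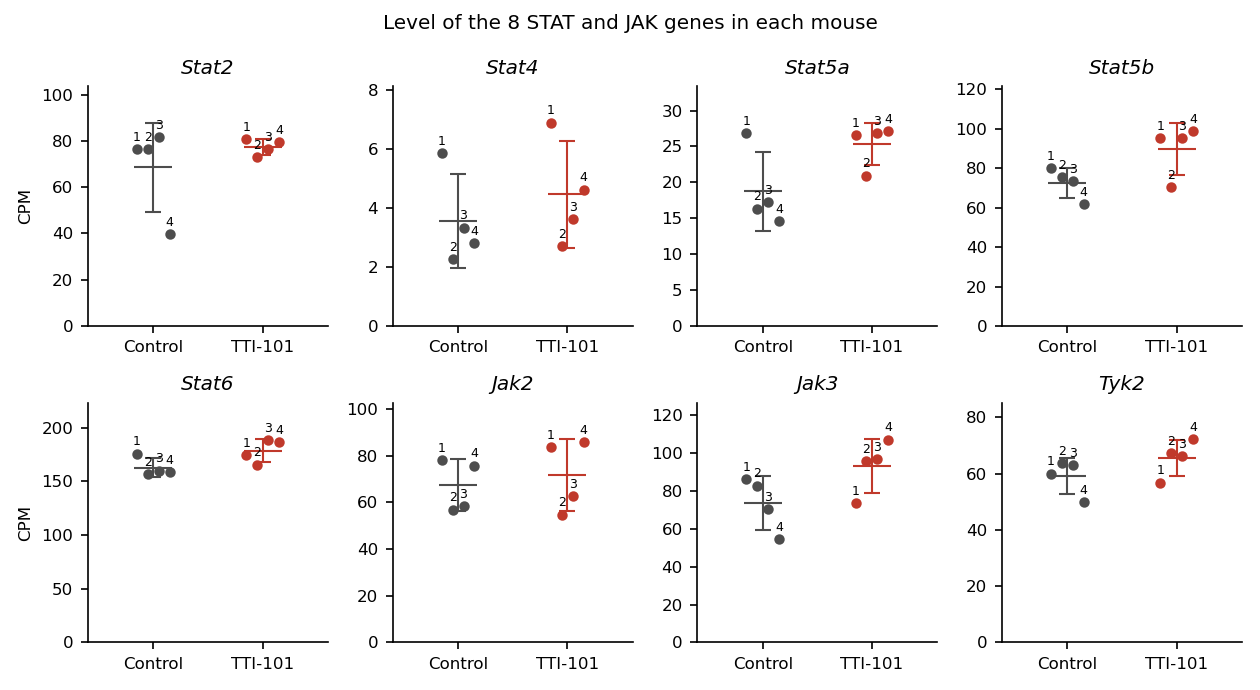
Level of each member in CPM on the y axis for the 4 Control and 4 TTI-101 mice, with points numbered by mouse and the mean and SD of each group as a line with bars. The groups overlap for every member. Control mouse 4 is the lowest of all 8 mice for 5 members, and TTI-101 mouse 2 is the lowest of its group for 6.

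The drug target and Jak1 showed no called difference either. Stat3 itself had a log2 fold change of -0.08 (SE 0.15, adjusted p = 0.886), which was 0.0036 without Control mouse 4. Jak1 had 0.34 (SE 0.24, adjusted p = 0.689) and 0.31 without that mouse.

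Levels of different genes were compared per length, in RPKM, CPM divided by the gene length in kilobases of merged exons, averaged over the 8 mice. Stat6 was the most abundant of the 10 genes compared at 38.7 ± 2.82 RPKM (SD, n = 8), above Stat3 at 26.3 and Jak1 at 26.2 RPKM. Next came Jak3 at 15.6 ± 3.15, Stat5b at 14.7 ± 2.46, Jak2 at 13.8 ± 2.52 and Stat2 at 12.3 ± 2.31 RPKM. Tyk2 followed at 9.08 ± 1.01, then Stat5a at 3.09 ± 0.758 and Stat4 at 1.04 ± 0.425 RPKM. Stat6 was above Jak3, Tyk2 above Stat5a and Stat5a above Stat4 in 8 of 8 mice. Each of these 3 steps had an adjusted p of 0.0182 by an exact sign-flip permutation test over 7 neighboring pairs. Stat2 was above Tyk2 in 7 of 8 mice (exact adjusted p = 0.0273). The levels of Jak3, Stat5b, Jak2 and Stat2 did not differ from their neighbors beyond the spread between mice (exact adjusted p = 0.406 for each of the 3 pairs). When the length of the longest coding transcript was used in place of merged exons, Stat6, Stat5a and Stat4 kept their ranks among the 8 members, but Stat2 moved above Stat5b, and Jak2 and Tyk2 became neighbors that did not differ beyond their spread (exact adjusted p = 0.516). On that scale Stat6 averaged 45.2, Stat3 41.5 and Jak1 38.7 RPKM.

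Jak3 is often described as a lymphocyte kinase, and its level per length was set beside the T cell markers. Jak3 was at 10.2 RPKM or more in every mouse, whereas the 8 T cell markers had mean levels from 0.33 RPKM for Trat1 to 6.30 RPKM for Lck. The highest value of any T cell marker in any mouse was 9.74 RPKM, for Lck. The common gamma chain Il2rg, named after its values were seen, averaged 16.5 RPKM, and the lymphocyte receptors Il7r and Il2rb lay lower, with 9.90 and 9.59 RPKM in their highest mouse. Stat4, at 1.04 RPKM, lay within the range of the T cell markers.

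As a share of the summed RPKM of the 6 STATs given here, Stat6 made up 40.1% ± 0.999 in Control and 40.5% ± 1.58 in TTI-101 mice (SD, n = 4 each). The share of Stat3 was 29.4% ± 4.03 and 25.6% ± 3.26, and that of Stat5b was 14.2% ± 1.11 and 16.2% ± 1.84. Stat2 held 12.5% ± 3.31 and 13.0% ± 0.400, Stat5a 2.82% ± 0.644 and 3.55% ± 0.302, and Stat4 0.984% ± 0.373 and 1.14% ± 0.451. For each of these genes the ranges of the 2 groups overlapped, and the order of the STATs by group mean was the same in both groups. Control mouse 4 had the largest Stat3 share, 35.2%, and the smallest Stat2 share, 7.68%. With the length of the longest coding transcript, Stat6 held the largest share in 5 of 8 mice and Stat3 in 3, Control mice 3 and 4 and TTI-101 mouse 2. Among the JAKs, Jak3 made up 23.3% ± 3.45 and 25.2% ± 5.35, Jak2 22.8% ± 3.64 and 20.2% ± 2.10, and Tyk2 14.8% ± 2.29 and 13.8% ± 2.60.

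**Figure D3:**
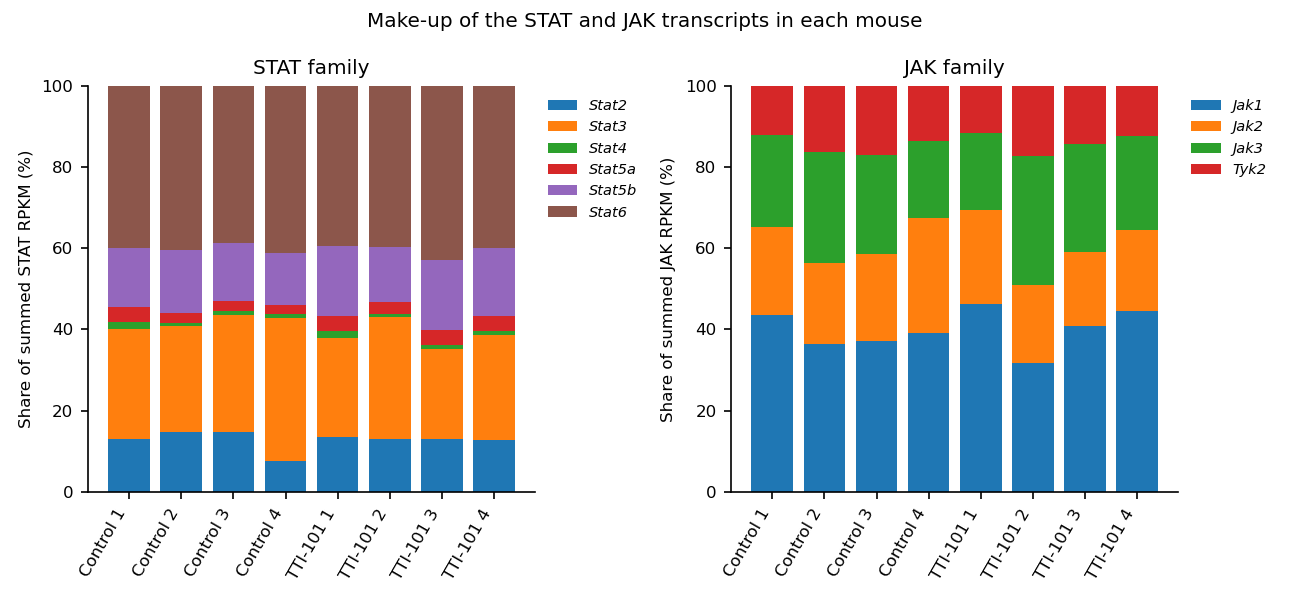
Share of each gene in the summed RPKM of the genes drawn from its family (y axis, percent) in each of the 8 mice, STATs on the left and JAKs on the right. Stat6 is the largest STAT share in every mouse, between 38.8% and 42.9%, and Jak1 is the largest JAK share in 7 of the 8 mice. The lengths are those of merged exons, and with the longest coding transcript Stat3 exceeds Stat6 in 3 mice.

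A ratio within a library does not depend on its total, so 10 log2 ratios were tested by exact permutation over the 70 ways to split the mice. The ratio of every member to Stat3 was higher in the TTI-101 group, by 0.16 for Jak2 to 0.55 for Stat5a on the log2 scale. The 8 ratios share Stat3 as denominator and are not independent. For Stat5a over Stat3, the Control values were -3.27, -3.75, -3.90 and -4.33 and the TTI-101 values were -3.13, -3.69, -2.98 and -3.27. Of the 4 TTI-101 mice, 3 were above every control (exact p = 0.0571, adjusted p = 0.476). No ratio had an adjusted p below 0.476. The ratio of Stat5a to Stat5b differed by 0.17 (exact p = 0.314), and that of Stat4 to Stat6 by 0.19 (exact p = 0.6). For Stat2 over Stat3, the difference of 0.30 became -0.0050 without Control mouse 4.

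Because the lungs differed in cell make-up, each member was set against marker scores of T, B and NK cells, the mean log2 CPM of 8 genes each. All 24 correlations over the 8 mice were above 0, and 8 had an adjusted p under 0.05 by exact permutation of Pearson's r: Stat5a and Stat5b with all 3 scores, Stat6 with B cells and Stat2 with NK cells. By Spearman's rho, 0 of 24 passed, and the lowest adjusted p was 0.0536. With Control mouse 4 left out, 0 of 24 passed by Pearson's r, with a lowest adjusted p of 0.0533. The share of all genes tested that passes with these scores was not computed. The counts therefore do not show whether such relations are particular to the members.

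Stat5a followed the B cell score most closely. Pearson's r was 0.94 (exact p = 0.000645, adjusted p = 0.00774) and Spearman's rho was 0.88 (exact p = 0.00724). It remained 0.92 (exact p = 0.0236) without the 2 mice farthest from the median score, Control mouse 4 and TTI-101 mouse 3. Stat5b with the NK cell score gave r = 0.92 (exact p = 0.000174, adjusted p = 0.00417) and rho = 0.93 (exact p = 0.00223), and r was again 0.92 without Control mouse 4 and TTI-101 mouse 1 (exact p = 0.00139). Stat6 with the B cell score gave r = 0.88 (exact p = 0.00533, adjusted p = 0.0183) and rho = 0.90 (exact p = 0.00456), and r = 0.86 without 2 mice (exact p = 0.0375).

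For Stat2 and the NK cell score, r was 0.86 (exact p = 0.0137, adjusted p = 0.0411) beside a rho of 0.57 (exact p = 0.151). It was 0.53 without Control mouse 4 (exact p = 0.223), and 0.37 when TTI-101 mouse 1 was left out as well (exact p = 0.493). Stat4, a lymphocyte gene by its known role, gave r = 0.75 (exact p = 0.0279, adjusted p = 0.0669) and rho = 0.86 (exact p = 0.0107) with the T cell score, and r = 0.83 without 2 mice (exact p = 0.0514). For Jak3 and the T cell score, r was 0.64 (exact p = 0.0846, adjusted p = 0.113) and rho was 0.43 (exact p = 0.299). That r was 0.11 without Control mouse 4.

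The same was then done for the endothelial and lung epithelial scores, 16 relations chosen after the data were seen. Stat5b followed both. With the endothelial score of 5 genes, r was 0.93 (exact p = 2.48e-05, adjusted p = 0.000397) and rho was 1.00 (exact p = 4.96e-05), the order of the 8 mice being identical. Without Control mouse 4 and TTI-101 mouse 4, r was 0.98 (exact p = 0.00139). With the lung epithelial score, r was -0.98 (exact p = 9.92e-05, adjusted p = 0.000794) and rho was -0.95 (exact p = 0.00114), and r was -0.95 without the same 2 mice (exact p = 0.0111). The score of 8 lung epithelial genes was 11.1, 11.1, 11.4 and 11.8 in the Control mice and 10.8, 11.4, 10.9 and 10.7 in the TTI-101 mice. TTI-101 mouse 2, which had the lowest Stat5b of its group, also had the highest epithelial and the lowest endothelial score of its group. The third relation that passed was Stat5a with the endothelial score, with r = 0.80 (exact p = 0.00593, adjusted p = 0.0316) and rho = 0.88 (exact p = 0.00724). It gave r = 0.65 without 2 mice (exact p = 0.188). The share of all genes that follows the endothelial or epithelial score as closely was not computed either.

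None of 10 marker scores had an exact p under 0.05 between the groups. The B cell score was 1.22 higher in TTI-101 mice on the log2 scale (exact p = 0.0571), the endothelial score 0.68 higher (exact p = 0.114), the T cell score 0.85 higher and the NK cell score 0.80 higher (exact p = 0.171 for both). The lung epithelial score differed by -0.38 (exact p = 0.143). The red cell score was 2.28 higher (exact p = 0.0571), the adipocyte score 2.07 (exact p = 0.0857), the cardiac muscle score 1.47 (exact p = 0.286), the neutrophil score 1.06 (exact p = 0.2) and the macrophage score 0.23 (exact p = 0.486). The 8 B cell genes summed to 110 to 293 CPM among Control and 265 to 541 CPM among TTI-101 mice, and the endothelial genes to 797 to 2284 and 1777 to 3315 CPM. All 8 B cell, 8 T cell and 8 NK cell genes had counts in every library. The part of any of these cell types in the Stat5a and Stat5b values was not tested.

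**Figure D4:**
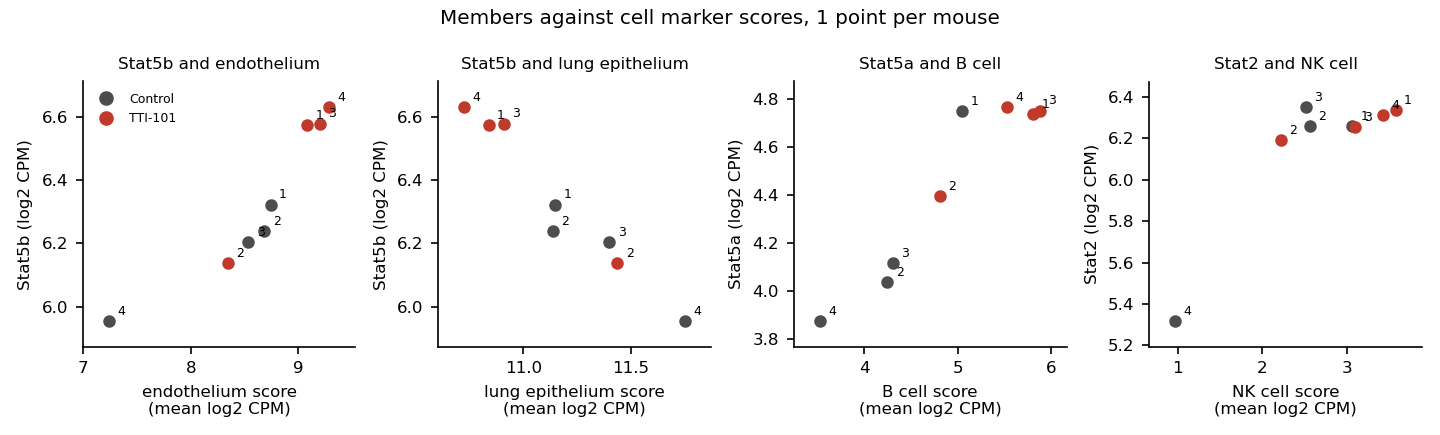
Log2 CPM of Stat5b, Stat5a and Stat2 (y axes) against marker scores in mean log2 CPM (x axes), with 1 point per mouse, numbered within its group, Control in grey and TTI-101 in red. Stat5b has the same order of mice as the endothelial score and falls with the lung epithelial score, and in the Stat2 panel Control mouse 4 lies apart from the other 7 mice.

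Among the 28 pairs of members, 24 had a correlation above 0 and 0 had an adjusted p under 0.05 by Pearson's r. Stat5a with Stat6 passed by Spearman's rho (exact adjusted p = 0.0319). The closest were Jak3 with Tyk2 and Stat5a with Stat6, both with r = 0.92 over 8 mice. For Jak3 with Tyk2 the exact p was 0.00188 and the adjusted p 0.0528, rho was 0.86 (exact p = 0.0107), and r was 0.67 without 2 mice (exact p = 0.160). For Stat5a with Stat6 the exact p was 0.00479 and the adjusted p 0.0670, rho was 0.95 (exact p = 0.00114), and r was 0.88 without 2 mice (exact p = 0.00556). The paralogs Stat5a and Stat5b gave r = 0.86 (exact p = 0.0131, adjusted p = 0.0918), rho = 0.88 (exact p = 0.00724) and r = 0.78 without 2 mice (exact p = 0.0431).

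The genes whose pattern over the 8 mice was most like each member were found among 17137 tested genes by Pearson's r on log2 CPM, as a description. Stat5b was closest to Ece1, Prickle2 and Gimap5 (r = 0.99 for each), and Stat6 to Pml (r = 0.99), Clstn1 and Hunk (r = 0.98 for both). Close to Stat5a were the DNA sensor gene Aim2 and Mtg2 (r = 0.98 for both). Jak3 was closest to Col4a2, a basement membrane collagen (r = 0.97), Ankrd27 and Kbtbd13 (r = 0.96 for both). Close to Tyk2 were Nbeal2 (r = 0.97) and Dab2ip (r = 0.95), Jak2 was closest to Snap29 (r = 0.98), Ap5m1 and Etv3 (r = 0.97 for both), and Stat4 to Hnrnpr (r = 0.98), Cpne8 (r = 0.97) and Lgals8 (r = 0.96). These values, for the 7 members other than Stat2, stayed at 0.90 or above without Control mouse 4. The exception was Stat2, whose closest genes Kcne3, Chst10 and Trmt9b fell from 0.99, 0.99 and 0.98 to 0.56, 0.42 and 0.11.

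The genes around the members were read from 9 lists that held 102 genes, of which 90 were tested. At an adjusted p under 0.05, 0 of 90 were called. At an unadjusted p under 0.05 there were 7, or 7.78% beside 6.61% of all genes, 6 of them higher and 1 lower. Of the 90, 60 were higher and 30 lower, with a median log2 fold change of 0.15. Without Control mouse 4, 5 passed the unadjusted threshold, or 5.56% beside 3.03% of all genes in that fit, and the median was 0.07 beside 0.02 over all genes. All genes named from these lists below had an adjusted p of 0.657 or more.

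Ligands came first. Of 21 cytokines and hormones that signal through the members, 9 were tested, 5 of them higher, and the other 12, among them Il2, Il13, Il21 and Ifng, had at most 28 counts in any library. The largest differences were those of Il12b, a subunit of interleukin-12 and interleukin-23, at -0.61, and of Il12a at 0.53, and neither passed the unadjusted threshold. These became -0.51 and 0.26 without Control mouse 4. Il12b was at 1.69 CPM or less and Il12a at 3.22 CPM or less in every mouse.

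Receptors of the common gamma and beta chain families, which signal through Jak3, Jak2, Stat5a, Stat5b and Stat6, were higher for 14 of 15 genes, with a median log2 fold change of 0.30, where 50.6% of all genes were higher. Of the 15, 2 passed the unadjusted threshold, and without Control mouse 4 the median was 0.16 and 1 passed. Many of these receptors are made by lymphocytes, and the T, B and NK cell scores were 0.80 to 1.22 higher in the TTI-101 mice. Their part in these values was not tested. Il4ra, the chain through which Stat6 is activated, was at 114 to 156 CPM in Control and 155 to 191 CPM in TTI-101 mice, with 3 of 4 above every control. Its log2 fold change was 0.36 with an SE of 0.14 (unadjusted p = 0.0277), and without Control mouse 4 it was 0.40 (unadjusted p = 0.0262). Il21r, the interleukin-21 receptor, was at 4.92 to 15.6 CPM and 13.1 to 20.1 CPM, with a log2 fold change of 0.77 and an SE of 0.32 (unadjusted p = 0.0351), and 0.56 without Control mouse 4 (unadjusted p = 0.0598).

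None of the 10 interferon and interleukin-12 family receptors, which among them use Tyk2, Jak2, Stat2 and Stat4, passed the unadjusted threshold (median 0.09). The largest differences were -0.90 for Il23r, at 1.41 CPM or less in every mouse, and 0.59 for Il27ra, which were -0.46 and 0.37 without Control mouse 4. None of the 6 hormone-type receptors that use Jak2 passed it either (median 0.31). The largest differences were -1.14 for the prolactin receptor Prlr, at 2.75 CPM or less in every mouse, and 0.83 for Csf3r. Csf3r is also a neutrophil marker. Without Control mouse 4 the median was 0.17, Prlr was at -0.43 and Csf3r at 0.52.

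Of 19 inhibitors of the pathway, 11 were higher and 8 lower, and Usp18 passed the unadjusted threshold. Usp18 is induced by interferon and shuts off its receptor. It was at 21.3 to 31.6 CPM in Control and 17.2 to 23.3 CPM in TTI-101 mice, a log2 fold change of -0.39 with an SE of 0.18 (unadjusted p = 0.0486). With Control mouse 4 left out it was -0.32 (unadjusted p = 0.110). It was also the gene that passed among the 10 genes of the Stat2 complex and its targets, of which 6 were higher and 4 lower. The median of that list was 0.18, and 0.02 without Control mouse 4, with 5 higher and 5 lower.

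Of the Stat4 targets, 7 of 8 were tested and 2 passed the unadjusted threshold, with 5 higher and a median of 0.27. With Control mouse 4 left out, 7 were higher, 3 passed and the median was 0.18. Of all genes tested, 6.61% passed with all mice and 3.03% without that mouse. Prf1, the pore-forming protein of cytotoxic lymphocytes, was at 1.47 to 10.3 CPM in Control and 6.18 to 19.9 CPM in TTI-101 mice, with a log2 fold change of 1.34 and an SE of 0.51 (unadjusted p = 0.0246), and 1.04 without Control mouse 4 (unadjusted p = 0.0249). Hlx, a transcription factor, had 0.71 with an SE of 0.25 (unadjusted p = 0.0183), and 0.60 without that mouse (unadjusted p = 0.0419). The markers of NK cells, in which Prf1 is made, summed to 19.4 to 79.4 CPM among Control and 45.5 to 121 CPM among TTI-101 mice, and their part in the Prf1 value was not tested.

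Of 10 Stat5 targets, 6 were higher and Osm passed the unadjusted threshold. Osm encodes oncostatin M, a cytokine of the interleukin-6 family. It was at 1.83, 1.55, 1.28 and 0.448 CPM in the Control mice and at 2.60, 2.04, 3.39 and 3.04 CPM in the TTI-101 mice. Osm was thus above every control in 4 of 4 TTI-101 mice, as were 1.53% of all genes tested. Its log2 fold change was 1.10 with an SE of 0.41 (unadjusted p = 0.0232), and 0.83 without Control mouse 4 (unadjusted p = 0.0245), on 7 to 69 counts per library. Of 12 Stat6 targets, 7 were higher and Fcer2a passed the unadjusted threshold. Fcer2a, the low affinity IgE receptor of B cells, was at 12.9 to 39.2 CPM and 19.5 to 51.5 CPM, a log2 fold change of 0.98 with an SE of 0.39 (unadjusted p = 0.0298), and 0.82 without Control mouse 4 (unadjusted p = 0.0671). The B cell score was 1.22 higher in the TTI-101 mice, and its part in the Fcer2a value was not tested. The median over the Stat5 targets was 0.11, and 0.09 without Control mouse 4. Over the Stat6 targets it was 0.05, and it turned to -0.017 without Control mouse 4, with 6 higher and 6 lower.

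**Figure D5:**
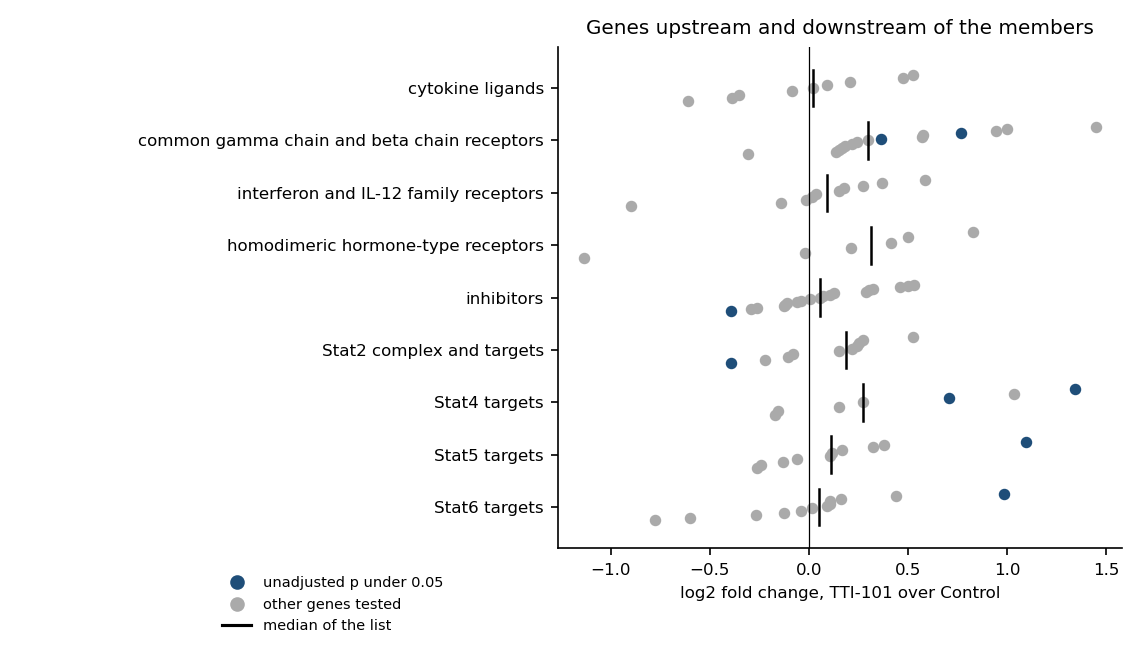
Log2 fold change of TTI-101 over Control (x axis) for the 90 tested genes of the 9 lists around the members, 1 point per gene, blue where the unadjusted p of edgeR was under 0.05, with the median of each list as a black line. A gene in more than 1 list is drawn in each. The medians lie between 0.02 and 0.31, and 7 genes are blue. Without Control mouse 4 the median of the Stat6 targets is -0.017.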

How the data were processed

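The authors deposited 1 table of raw counts per gene for 8 mouse lungs (poly(A) RNA, Illumina stranded kit, paired ends), with gene coordinates and lengths. STAR, DESeq2 and the build mm10 are named in the submitters' processing notes, without role or version. The counting tool, its strand setting and its treatment of shared reads are not given in the sources used here. Of the gene identifiers, 54495 were found in GENCODE M21, and 53548 had the same position. Library totals are given with the results, and intervals and p-values measure the spread between mice.

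Groups and mouse numbers were taken from the titles of the samples. Genes were filtered by filterByExpr of edgeR 4.0.16 (minimum count 10), scaled by TMM and tested with the quasi-likelihood test, Benjamini-Hochberg adjusted over all 17138 genes, in R 4.3.3. Alternatives were limma-voom (limma 3.58.1), DESeq2 1.42.0, other scalings and filters, a replicate block and leaving out each mouse. The procedure was tested on simulated data. Ratios used a prior count of 0.5 and scores of 2. Exact permutation tests used 70 splits of the mice, 256 sign patterns or 40320 orders, all two-sided. Reads per kilobase used the deposited gene lengths, which equaled merged exons for all 10 STAT and JAK genes given.

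The members, the gene lists and the tests were chosen with earlier results of these data known. All 8 members were reported. From each list, genes with an unadjusted p under 0.05 were named, at most 4, or otherwise the 2 largest changes, and for each member the 3 most similar genes. Some genes that these rules name are not reported here and were left out of the lists and shares. The shares by transcript length, Il2rg, Il7r, Il2rb and the T cell marker extremes were chosen after values were seen.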

Additional observations from a re-analysis of the deposited data

Results flagged for a closer look

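Among the 8 members and the 2 relatives Stat3 and Jak1, 20 groups of 4 mice were examined for a mouse whose gap to its nearest neighbor was past Dixon's 95% critical value, as a share of the group's whole range. Chance gives about 1 in 20 groups, or 1 of 20, and 4 were found. The groups come from the same 8 mice and are not independent, so 4 against 1 was not tested.

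Stat2 in Control mouse 4 stood at 39.8 CPM, where the next lowest control was at 76.4 CPM, a gap of 0.878 of the range. The same mouse had the highest mitochondrial share and the lowest T cell, B cell, NK cell and endothelial marker sums.

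Stat5a in TTI-101 mouse 2 stood at 20.96 CPM below the 26.6 to 27.1 CPM of the other TTI-101 mice, a gap of 0.910 of the range. Stat5b in the same mouse stood at 70.3 CPM below 95.2 to 98.9 CPM, a gap of 0.869. This mouse had the lowest endothelial, T cell, B cell and NK cell scores of its group.

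Jak1 in Control mouse 1 stood at 226 CPM above the 144 to 151 CPM of the other controls, a gap of 0.915.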

How the results depend on the processing

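No member passed an adjusted p of 0.05 under any alternative, and 147 alternative fold changes of the 10 STAT and JAK genes kept their direction. Those that turned were Stat2 at -0.0033 and Stat3 at 0.0036 without Control mouse 4, and Jak2 at -0.0019 without TTI-101 mouse 4. Leaving out each mouse moved Stat2 from -0.0033 to 0.27, Stat3 from -0.14 to 0.0036 and Jak2 from -0.0019 to 0.21. The number of genes at an adjusted p under 0.05 was 4 by DESeq2 and 0 to 1 with a mouse left out. At an unadjusted p under 0.05 it was 1849 with no filter and 422 to 2498 with a mouse left out: 2393 without Control mouse 1, 531 without Control mouse 4, 711, 2498 and 422 without TTI-101 mice 1, 2 and 3. With a mouse left out, between 0 and 2 members had an unadjusted p under 0.05. The fits with 2 members were those without Control mouse 1 and without TTI-101 mouse 2. In these, 2393 of 17406 and 2498 of 17533 genes passed, against 1132 of 17138 with all mice. Of 90 alternative ratios, 2 turned: Stat2 to Stat3 was -0.0050 without Control mouse 4, with a range up to 0.45, and Stat4 to Stat6 was -0.055 without TTI-101 mouse 1, with a range up to 0.42. Of the marker relations, 4 in place of 8 passed with values centered on the group means, 0 without Control mouse 4 and 1 without the 2 mice farthest from the median score. Those that turned were Stat2 with T cells at -0.048 and Tyk2 with B cells at -0.12 without 2 mice, and Tyk2 with T cells at -0.36 and with NK cells at -0.19 without Control mouse 4. The order of levels had 3 or 4 of 7 steps past the threshold in every alternative; the alternatives of this order were chosen after the data were seen.

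With the replicate number as a block, 1298 genes had an unadjusted p under 0.05 and 0 an adjusted p under 0.05. Among the members the block gave 0.47 for Stat5a (unadjusted p = 0.0396, adjusted p = 0.577) and 0.30 for Stat5b, and it changed no call. Deviations from the group means of same-numbered mice correlated at 0.39, 0.08, 0.16 and 0.07, so the numbers were not taken as pairs, and 2 of the 4 Control mice correlated best with their own number.

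With 4 mice per group, the 95% interval of the fold was widest for Stat4, from 0.694 to 2.23, and narrowest for Stat6, from 0.912 to 1.32.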
